A study of Mus musculus with 18 samples.

Results

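Transcripts of 10 amino acid transporter genes were followed across the 6 groups of a choline inhibitor experiment in mouse bone marrow-derived macrophages (BMDM). The genes were chosen by name from the Slc1, Slc3, Slc6, Slc7 and Slc38 families, as plasma membrane proteins that carry neutral amino acids or are part of such carriers. The choice was made with earlier results of these data known. They are *Slc3a2*, *Slc7a5*, *Slc7a8*, *Slc7a6*, *Slc7a3*, *Slc1a4*, *Slc1a5*, *Slc38a1*, *Slc38a2* and *Slc6a9*. Each name matched 1 of the 55385 Ensembl genes in the count table, and all 10 were among the 14979 genes tested (a minimum of 10 counts in 2 or more of the 18 libraries).

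BMDM came from 3 female C57BL/6J mice of 12 weeks and were grown with L-929 culture supernatant. Cells received vehicle (Veh, DMSO), 250 µM hemicholinium-3 (HC3), which blocks choline uptake, or 5 µM RSM-932a (RSM), which inhibits choline kinase, each for 24 h. A further 24 h without cytokine (naïve, M[0]) or with IL-4 at 20 ng/mL (M[IL-4]) followed, which gave 6 groups of 3 libraries: Veh, HC3 and RSM in M[0] and the same 3 in M[IL-4]. Replicate numbers are named in the labels, without saying which mouse each one is, and no genetic change or transgene is involved.

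Neutral amino acids such as leucine, glutamine, alanine, serine and glycine cross the plasma membrane through carriers that either exchange one amino acid for another or take it up with sodium. Several exchangers of the Slc7 family, called light chains, reach the cell surface only when bound by a disulfide bridge to the glycoprotein heavy chain encoded by *Slc3a2* (CD98hc). Supply of leucine and glutamine through such carriers feeds protein synthesis and the activity of mTORC1, and several carrier genes are known targets of ATF4, the transcription factor of the integrated stress response.

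The name neutral amino acid transporter does not describe 2 of the 10 in full. *Slc3a2* is the heavy chain and carries no amino acid itself, and *Slc7a3* encodes a carrier of cationic amino acids (CAT3). *Slc7a6* encodes y+LAT2, which exchanges cationic for neutral amino acids.

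Libraries held 17457796 to 19522255 counts, at which 3 counts in a library correspond to 0.153 to 0.176 CPM, the counts scaled to library size with edgeR's TMM factors. All 8 macrophage markers examined were tested, and their summed level was 20277 to 21364 CPM with Veh, 8707 to 9799 with HC3 and 15749.5 to 17196 with RSM in M[0], and 11801 to 12146, 7469 to 8657 and 10601 to 12982 CPM after IL-4. Of these 8 markers, 6 fell past the fold threshold under HC3 in M[0], 3 under RSM in M[0], 2 under HC3 in M[IL-4] and 0 under RSM in M[IL-4]. Stromal markers (6 of 7 tested, *Lum* at 0 in 5 groups) summed to 527 to 888 CPM in Veh-treated M[0], 1233 to 1699 in those given HC3 and 1036 to 1486 in those given RSM, and to 285 to 665, 563 to 1061 and 540.5 to 1077 CPM in the matching M[IL-4] groups. By the same rule, 2 stromal markers were higher and 0 lower with HC3 in M[0], and 2 higher and 1 lower with RSM in M[0]. In M[IL-4], 1 was higher and 0 lower with HC3, and 1 higher and 1 lower with RSM. The part of these marker shifts in the transporter results was not tested. Markers of neutrophils, B cells, T cells, dendritic cells and erythroid cells summed to at most 5.92 CPM in any library. In bulk RNA, a smaller number of cells of a type and less RNA per cell cannot be told apart.

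The plot of levels by library shows each of the 10 genes. To compare genes with each other, CPM was divided by the summed exon length in kilobases. That length joins all annotated exons and can exceed the longest transcript, as for *Slc38a1* (17236 against 7266 bases) and *Slc1a5* (4173 against 2807). The order of genes close in level therefore depends on the length used. In Veh M[0] the order of levels per kilobase was *Slc3a2* (96.7 ± 9.09 CPM per kb, SD, n = 3), *Slc7a8* (63.5 ± 7.28), *Slc38a2* (24.2 ± 2.89), *Slc1a5* (9.97 ± 1.79), *Slc38a1* (7.17 ± 0.366), *Slc7a6* (5.46 ± 0.739), *Slc7a5* (3.50 ± 0.550), *Slc1a4* (1.34 ± 0.184), *Slc6a9* (0.284 ± 0.101) and *Slc7a3* (0.0989 ± 0.0244). No neighbours in that order had overlapping libraries, which leaves the choice of length aside. By summed exon length *Slc7a5* stood in place 7 in Veh M[0] and in place 6 in Veh M[IL-4]. It stood in place 4 in each of the 4 inhibitor groups, above *Slc1a5*, an order that another length could change. In Veh M[IL-4] neighbours overlapped for *Slc38a2* with *Slc1a5*, *Slc38a1* with *Slc7a5*, and *Slc7a5* with *Slc7a6*. Under HC3 in M[0] the libraries of *Slc7a8* (56.7 ± 4.52 CPM per kb) and *Slc38a2* (50.3 ± 2.05) overlapped, as did those of *Slc7a6* and *Slc38a1*.

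**Figure D1:**
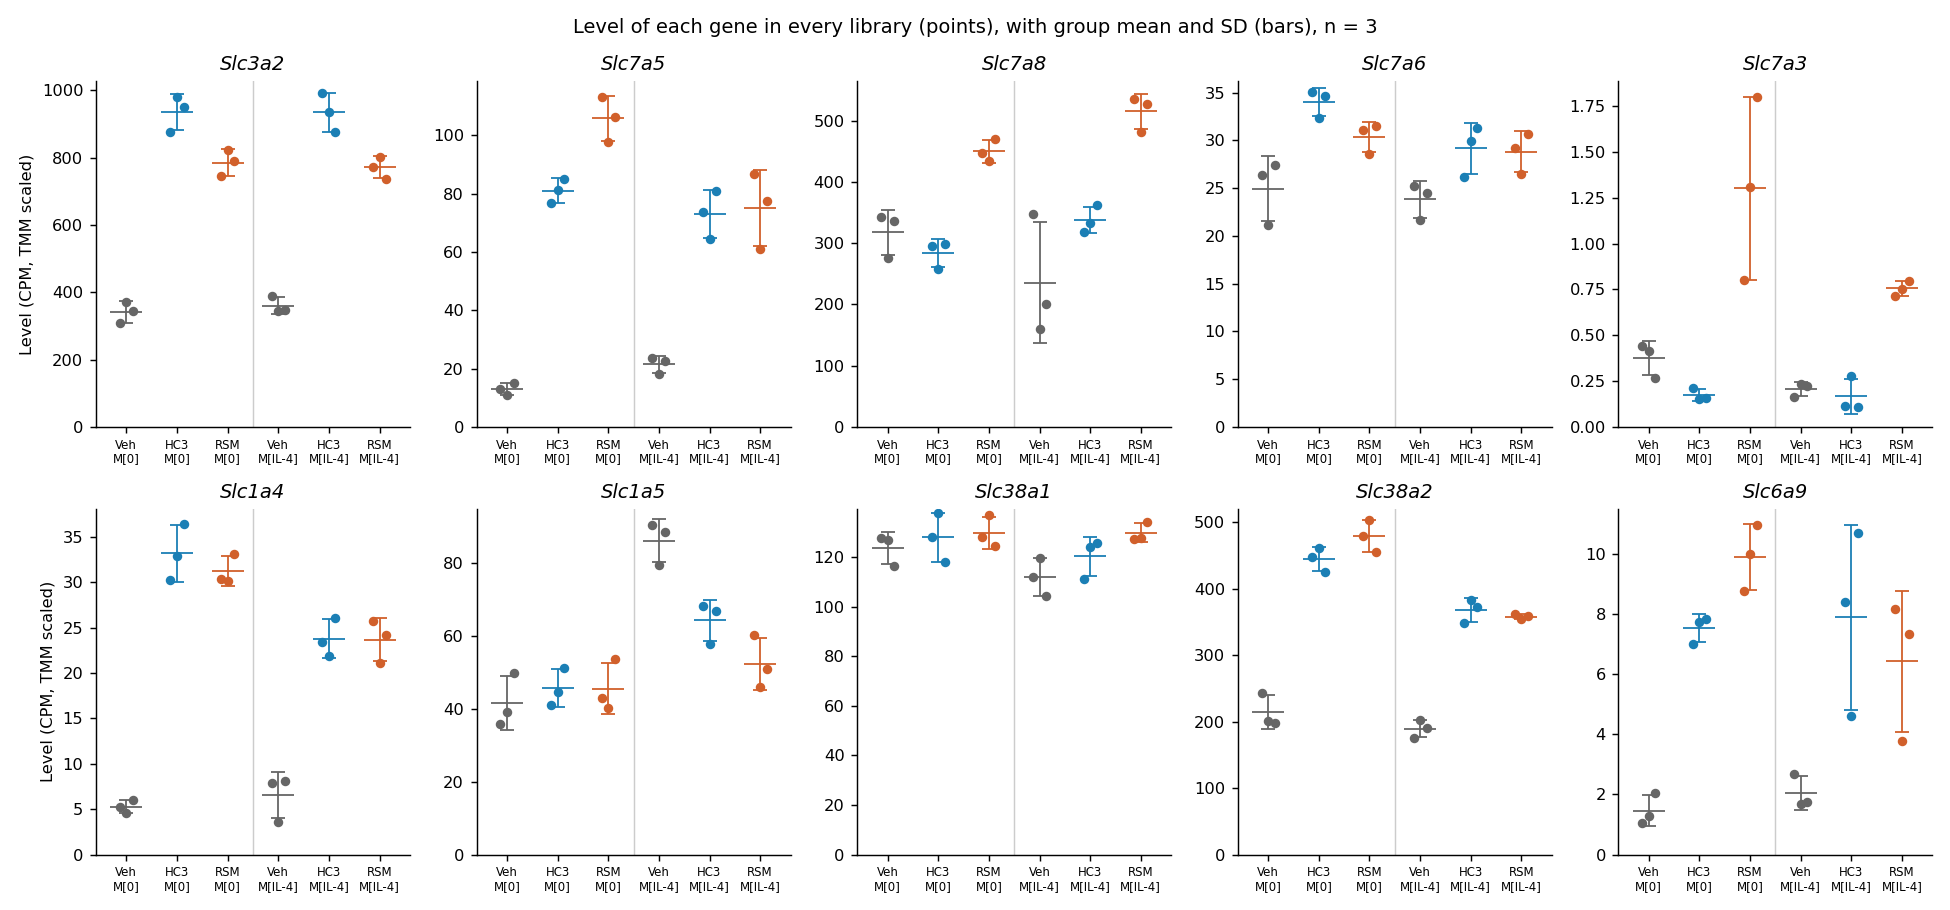
Level (CPM, TMM scaled, linear axes from 0) of each of the 10 genes in the 18 libraries by group, with points for libraries and bars for the mean and SD (n = 3). In *Slc3a2*, *Slc7a5*, *Slc1a4*, *Slc38a2* and *Slc6a9* every inhibitor library lies above every vehicle library of the same polarization, while those of *Slc38a1* overlap except under RSM in M[IL-4].

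The first question was whether blocking choline uptake or choline kinase changed the transporter transcripts. A gene was called when its false discovery rate (FDR, Benjamini-Hochberg over the 14979 genes, edgeR quasi-likelihood test) was under 0.05 and its level differed by 1 or more on the log2 scale in either direction. Because the 10 genes were chosen with earlier results of these data known, the shares of all genes printed beside their counts are descriptions. They are no test of enrichment. HC3 in M[0] raised 5 of the 10 genes past both thresholds and lowered 0, where 5.93% of all tested genes were called higher and 6.11% lower. By FDR alone 6 differed, against 44.1% of all genes, and the HC3 and vehicle libraries did not overlap in 7, against 52.2%. RSM in M[0] raised 6 and lowered 0 (all genes 5.05% and 6.51%), with 8 past the FDR (41.1%) and 8 without overlap (51.5%).

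In M[IL-4], HC3 raised 4 of the 10 and lowered 0 (all genes 4.72% and 5.53%), with 8 past the FDR (38.8%) and 7 without overlap (45.9%). RSM in M[IL-4] raised 6 and lowered 0 (all genes 5.05% and 6.00%), and all 10 passed the FDR (38.6%) and were without overlap (46.6%). The 6 raised by RSM in each polarization include *Slc7a3*, which passed the count filter through its RSM libraries alone. The median log2 fold change over the 10 genes was 0.75 for HC3 and 1.18 for RSM in M[0], and after IL-4 0.74 for HC3 and 1.11 for RSM. The median over all tested genes was 0.023, 0.0053, 0.0063 and 0.019 in the same order. Within a polarization HC3 and RSM were compared with the same 3 vehicle libraries, so the calls of the 2 inhibitors are not independent. The smallest exact permutation p that 3 libraries against 3 allow is 0.1, and the adjusted p-values are those of the fit over all tested genes. At an unadjusted p under 0.05, 1 gene was lower with HC3 in M[0], 0 with RSM in M[0], and 1 with each inhibitor after IL-4, and DESeq2 likewise called 0 lower and 5, 6, 4 and 6 higher. The share of all genes at this unadjusted p was not computed.

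**Figure D2:**
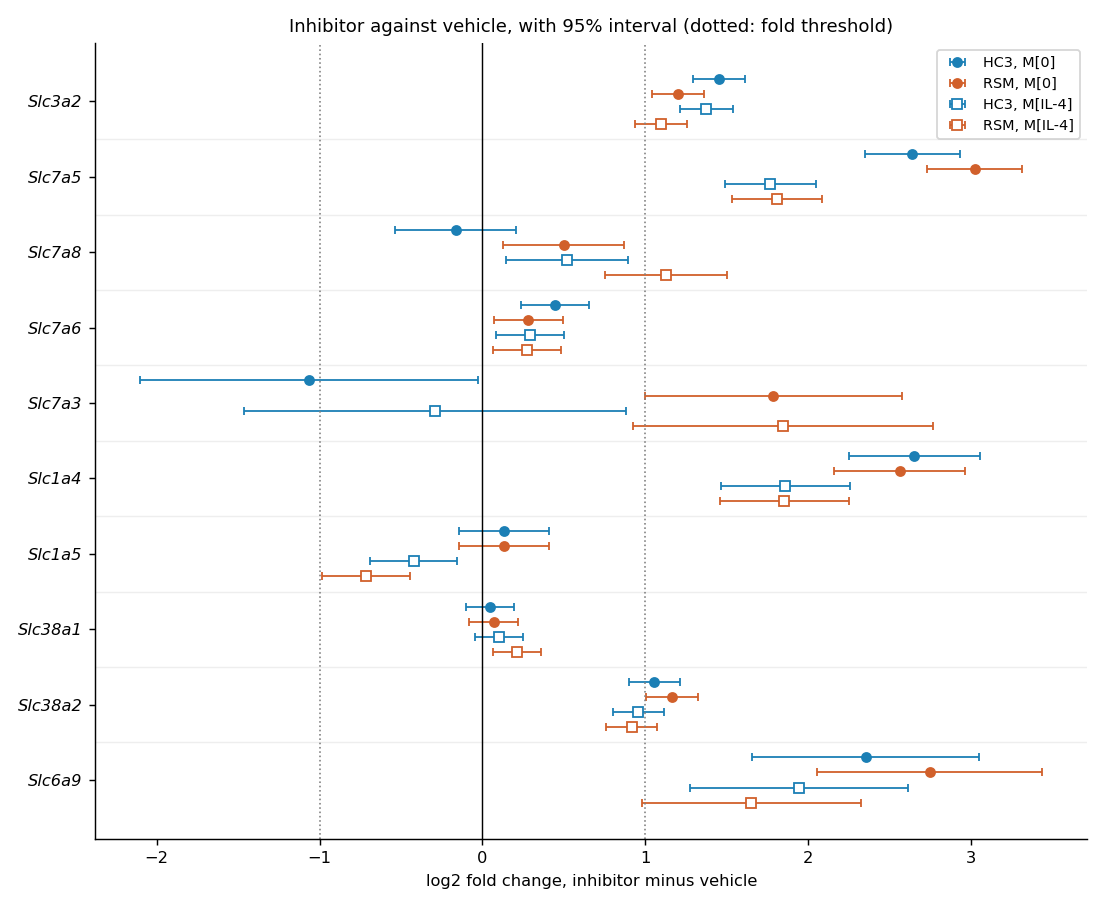
Log2 fold change of each gene in the 4 comparisons of an inhibitor with vehicle, with 95% intervals from the fit across all genes. Circles are M[0] and squares M[IL-4], blue is HC3 and orange RSM, and the dotted lines mark log2 fold changes of -1 and 1. *Slc7a5*, *Slc1a4* and *Slc6a9* lie right of 1 in each comparison, *Slc1a5* lies left of 0 in M[IL-4], and *Slc7a3* is right of 0 under RSM alone.

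The heavy chain transcript *Slc3a2* (ENSMUSG00000010095, chr19:8706882-8723369, minus strand, GRCm38) had the highest level per kilobase of the 10 genes in every group and rose under each inhibitor. Its 3 libraries were at 308, 372 and 344 CPM in Veh-treated M[0], 876, 978 and 949 CPM in those given HC3 and 744, 822 and 789 CPM in those given RSM. In M[IL-4] they were at 389.9, 344 and 347 CPM with Veh, 992, 936 and 875 CPM with HC3 and 773, 802 and 737 CPM with RSM. The lowest inhibitor library, at 737 CPM, was above the highest vehicle library, at 389.9 CPM. Short stretches of this gene, 6.11% of its transcript, are nearly identical to stretches of other genes. The log2 fold changes against vehicle (± SE) were 1.45 ± 0.077 for HC3 and 1.20 ± 0.076 for RSM in M[0] (FDR 2.30e-11 and 3.50e-10), and after IL-4 1.38 ± 0.077 and 1.10 ± 0.076 (FDR 8.37e-11 and 1.49e-09). HC3 libraries were higher than RSM libraries in both polarizations, by 0.25 ± 0.075 in M[0] (FDR 0.0314) and 0.28 ± 0.075 in M[IL-4] (FDR 0.0178) on the log2 scale. Both differences lost the FDR without replicate 3 (FDR 0.310 and 0.220), the first also without replicate 2 (0.0862) and the second without replicate 1 (0.0576).

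*Slc7a5* encodes LAT1, the light chain that exchanges intracellular glutamine for large neutral amino acids such as leucine, and lies at chr8:121881150-121907694, minus strand (ENSMUSG00000040010). It was at 12.9, 10.98 and 15.1 CPM in Veh-treated M[0], 76.6, 81.3 and 85.2 CPM in those given HC3 and 113, 97.8 and 106 CPM in those given RSM. In M[IL-4] its libraries held 23.6, 17.999 and 22.7 CPM with Veh, 73.6, 64.5 and 81.0 CPM with HC3 and 86.8, 61.0 and 77.6 CPM with RSM. The lowest inhibitor library stood well above the highest vehicle library in both polarizations. These were changes of 6.23-fold under HC3 and 8.13-fold under RSM in M[0] (log2 2.64 ± 0.14 and 3.02 ± 0.14, FDR 2.24e-11 and 5.90e-12). In M[IL-4] they were 3.41-fold and 3.51-fold (log2 1.77 ± 0.13 and 1.81 ± 0.13, FDR 4.58e-09 and 3.06e-09).

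*Slc7a8* encodes LAT2, a light chain with a broader choice of neutral amino acids, and was the most abundant light chain transcript (ENSMUSG00000022180, chr14:54722209-54781946, minus strand). Its libraries were at 342, 276 and 335 CPM in Veh-treated M[0], 295, 258 and 298 CPM in those given HC3 and 447, 433 and 469.7 CPM in those given RSM, and HC3 and Veh overlapped. In M[IL-4] they were at 347, 159 and 199.8 CPM with Veh, 318, 333 and 361 CPM with HC3 and 536, 481 and 528 CPM with RSM. Replicate 1 of Veh M[IL-4] was above 2 of the 3 HC3 M[IL-4] libraries, while the other 2 vehicle libraries were below all of them. RSM raised the transcript by 0.50 ± 0.18 on the log2 scale in M[0] (FDR 0.0297, 0.179 without replicate 3 and 0.0537 with DESeq2) and by 1.13 ± 0.18 in M[IL-4] (FDR 4.97e-05), which was 0.95, under the fold threshold, when replicate 2 was left out. HC3 gave -0.16 ± 0.18 in M[0] (FDR 0.485) and 0.52 ± 0.18 in M[IL-4] (FDR 0.0262), which did not pass without replicate 2 (FDR 0.143) or replicate 3 (0.354), with DESeq2 (0.0507) or with the compared groups alone (0.0967). HC3 libraries were lower than RSM libraries by 0.67 ± 0.18 in M[0] (FDR 0.0161) and by 0.61 ± 0.18 in M[IL-4] (FDR 0.0275), without overlap in either, though neither passed without replicate 3 (FDR 0.213 and 0.250).

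*Slc7a6* (ENSMUSG00000031904, chr8:106168857-106198706, plus strand) rose by small amounts under each inhibitor. Its mean level was 24.9 ± 3.38 CPM in Veh-treated M[0], 34.0 ± 1.48 in those given HC3 and 30.4 ± 1.55 in those given RSM, and 23.8 ± 1.90, 29.2 ± 2.64 and 28.8 ± 2.14 CPM in the same groups of M[IL-4]. All 4 inhibitor comparisons passed the FDR at log2 fold changes from 0.27 (FDR 0.0376) to 0.45 (FDR 0.00124), and none reached the fold threshold. The changes with RSM in both polarizations lost the FDR whichever replicate was left out, and that with HC3 in M[IL-4] without replicate 2 or 3, so that only HC3 in M[0] passed with each replicate left out.

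Since *Slc3a2* is shared by several light chains, the 5 light chain transcripts tested (*Slc7a5*, *Slc7a6*, *Slc7a7*, *Slc7a8* and *Slc7a11*) were also given as shares of their summed CPM per kb in each library. *Slc7a10* had a single count over the 18 libraries and was not tested. *Slc7a7* encodes y+LAT1, and *Slc7a11* encodes xCT, the cystine-glutamate exchanger. *Slc7a8* made up 79.2% ± 0.714 (SD, n = 3) of the sum in Veh-treated M[0], 60.3% ± 2.92 in those given HC3 and 62.6% ± 1.21 in those given RSM. The share of *Slc7a5* was 4.36% ± 0.385, 23.3% ± 1.25 and 19.9% ± 1.13 in these groups, and that of *Slc7a11* was 0.438% ± 0.142, 5.70% ± 2.12 and 8.89% ± 1.26. In M[IL-4] *Slc7a8* made up 74.5% ± 6.13 with Veh, 68.5% ± 0.420 with HC3 and 74.9% ± 0.805 with RSM, and the HC3 libraries were below all 3 vehicle libraries, while the RSM libraries lay within the vehicle range. The share of *Slc7a5* after IL-4 was 9.73% ± 1.98 with Veh, 20.0% ± 1.73 with HC3 and 14.7% ± 1.65 with RSM. *Slc7a5* thus took a larger share in every inhibitor library than in any vehicle library of the same polarization.

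The share of *Slc7a7* was lower with inhibitors, from 9.18% ± 0.756 in Veh M[0] to 2.76% ± 0.0674 in HC3 M[0] and 4.02% ± 0.175 in RSM M[0], and from 5.11% ± 1.54 in Veh M[IL-4] to 1.79% ± 0.0739 and 2.77% ± 0.381. Its own level fell by 1.50 on the log2 scale with HC3 and 0.34 with RSM in M[0] (FDR 1.29e-09 and 0.00979) and by 0.75 with HC3 in M[IL-4] (FDR 2.83e-05). With RSM in M[IL-4] its level rose by 0.35 (FDR 0.0149) while its share was lower. Part of its exons (7.00% of their length) overlaps a gene of the other strand. The ratio of *Slc3a2* to the sum of its light chains, both in CPM per kb, was 1.22 ± 0.249 in Veh-treated M[0], 2.82 ± 0.225 in those given HC3 and 1.55 ± 0.109 in those given RSM. In M[IL-4] it was 1.74 ± 0.418 with Veh, 2.71 ± 0.341 with HC3 and 1.60 ± 0.171 with RSM. All 6 HC3 libraries had higher ratios than all 6 RSM libraries. These shares and ratios are descriptions of transcripts, with no test, and their size depends on the exon lengths used.

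**Figure D3:**
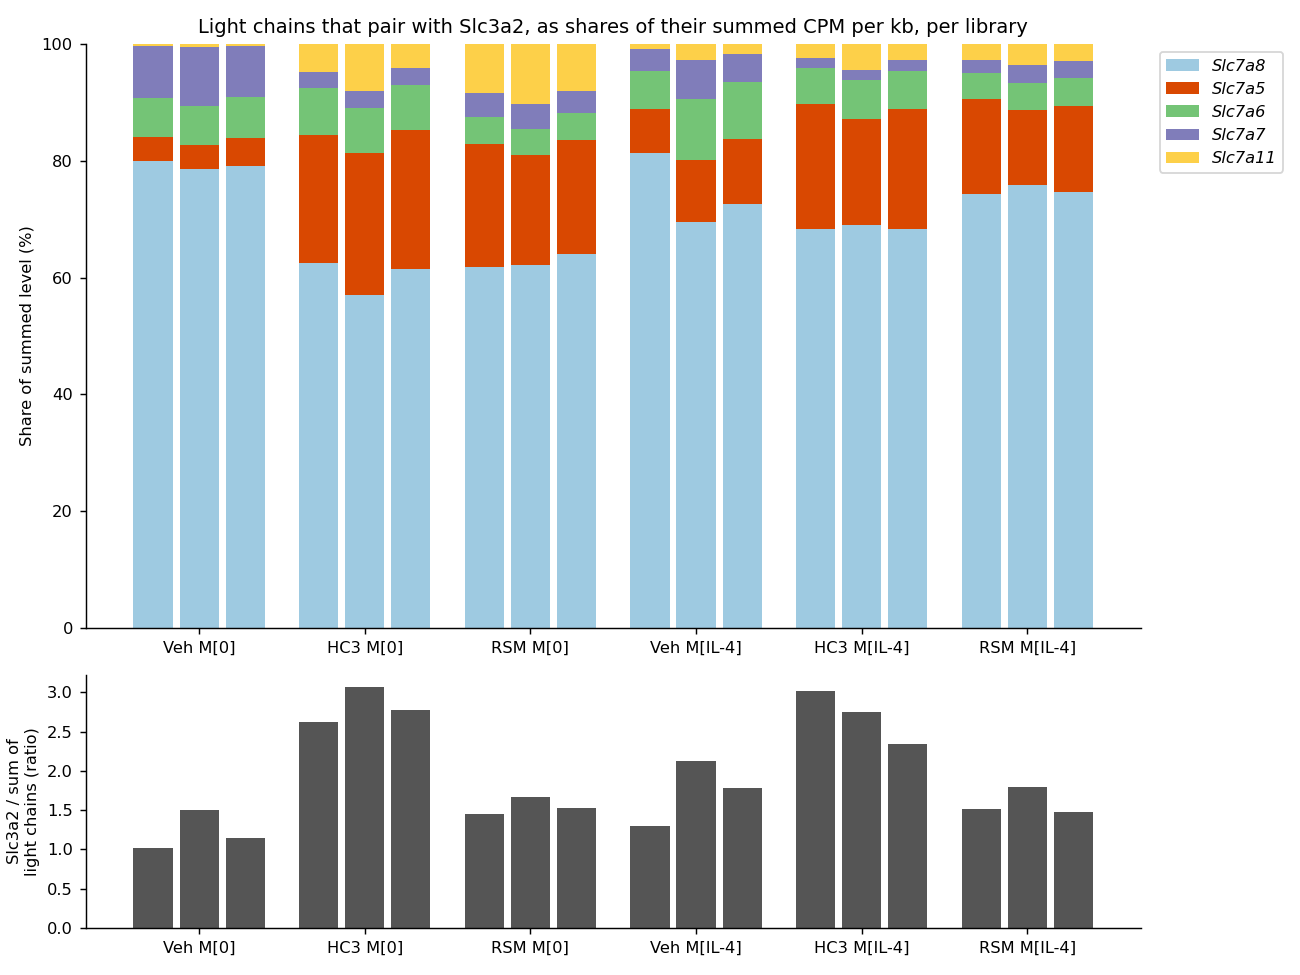
Upper axis, share (%) of each of 5 light chain transcripts in their summed CPM per kb, with 1 stacked bar for each of the 18 libraries. Lower axis, ratio of *Slc3a2* to that sum in the same libraries. *Slc7a8* (light blue) makes up most of every bar, and *Slc7a5* (orange) is wider in each inhibitor library than in the vehicle libraries of its polarization.

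*Slc7a3*, the cationic carrier (ENSMUSG00000031297, chrX:101079210-101086020, minus strand), was near the detection limit. The libraries held 8, 7 and 5 counts in Veh-treated M[0], 4, 3 and 3 counts in those given HC3 and 15, 25 and 35 counts in those given RSM. In M[IL-4] there were 3, 4 and 4 counts with Veh, 2, 5 and 2 counts with HC3 and 14, 14 and 15 counts with RSM. All 6 RSM libraries were above all 12 others, and the gene passed the count filter through them alone. Its comparisons of RSM with vehicle are therefore not independent of that filter. RSM raised it by 1.79 ± 0.38 on the log2 scale in M[0] (FDR 0.000817) and 1.84 ± 0.44 in M[IL-4] (FDR 0.00239), and without replicate 3 the M[0] change was 1.29 and no longer passed (FDR 0.0798). Under HC3 the change was -1.06 ± 0.49 in M[0] (FDR 0.0901) and -0.29 ± 0.56 in M[IL-4] (FDR 0.750). Another cationic carrier, *Slc7a1* (CAT1), was at 37.7 ± 3.15 CPM in Veh M[0].

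*Slc1a4* encodes ASCT1, a sodium-dependent exchanger of alanine, serine, cysteine and threonine (ENSMUSG00000020142, chr11:20302180-20332713, minus strand). It was at 5.20, 4.58 and 6.02 CPM in Veh-treated M[0], 30.2, 32.9 and 36.5 CPM in those given HC3 and 30.4, 30.1 and 33.1 CPM in those given RSM. In M[IL-4] it was at 7.86, 3.60 and 8.12 CPM with Veh, 23.4, 21.9 and 26.1 CPM with HC3 and 25.8, 21.1 and 24.2 CPM with RSM. The lowest inhibitor library, at 21.1 CPM, was above the highest vehicle library, at 8.12 CPM. The log2 fold changes were 2.65 ± 0.19 and 2.56 ± 0.19 in M[0] for HC3 and RSM (FDR 1.94e-09 and 3.59e-09), and after IL-4 1.86 ± 0.19 and 1.85 ± 0.19 (FDR 2.44e-07 and 2.20e-07). The difference between HC3 and RSM had a 95% interval of -0.26 to 0.44 in M[0] and -0.35 to 0.36 in M[IL-4].

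Promoter sequence was read for *Slc1a4* because its window holds the letters TGATGNAA, a form of the composite site to which ATF4 is known to bind. RefSeq windows of 300 bases, from 250 before to 50 after the gene start (GRCm38.p6), matched 6 of the 10 genes, and 1 of these 6 held the letters on either strand. Of 27025 genes with a window, 1219 (4.51%) held them. Of the related lists, 3 of 21 windows of amino acid synthesis and breakdown genes did, 4 of 15 of integrated stress response regulators, 2 of 28 of other plasma membrane carriers and 1 of 34 of lysosomal carriers and mTORC1 genes. The stretch of *Slc1a4* is shown with that of *Asns*, asparagine synthetase, whose transcript also rose. Both are printed 5′ to 3′ on the strand of the gene, with the 8 matching bases in capitals.
*Slc1a4*, chr11:20332704-20332763, minus strand: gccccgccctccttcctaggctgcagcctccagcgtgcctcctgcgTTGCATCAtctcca
*Asns*, chr6:7693203-7693262, minus strand: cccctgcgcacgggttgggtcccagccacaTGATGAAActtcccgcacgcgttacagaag
In *Slc1a4* the letters lie on the opposite strand of the gene, so they are printed as their reverse complement, and in *Asns* on its own strand. The match is a description of letters, and binding was not measured.

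*Slc1a5* encodes ASCT2, a glutamine carrier of the same family (ENSMUSG00000001918, chr7:16781340-16798274, plus strand), and did not rise under any inhibitor. Its libraries were at 35.8, 39.1 and 50.01 CPM in Veh-treated M[0], 41.1, 44.6 and 51.3 CPM in those given HC3 and 43.0, 40.2 and 53.6 CPM in those given RSM, with overlap among all 3 groups. In M[IL-4] they were at 90.5, 79.4 and 88.5 CPM with Veh, 68.2, 57.8 and 67.0 CPM with HC3 and 60.2, 46.1 and 50.9 CPM with RSM. The vehicle libraries of M[IL-4] were above every other library of the 18. HC3 lowered it by 0.42 ± 0.13 on the log2 scale (FDR 0.0134) and RSM by 0.72 ± 0.13 (FDR 0.000188) in M[IL-4], neither past the fold threshold. In M[0] the changes were 0.13 ± 0.13 and 0.13 ± 0.13 (FDR 0.439 and 0.460). The ratio of *Slc1a4* to *Slc1a5*, in CPM per kb, was 0.136 ± 0.0163 in Veh-treated M[0], 0.773 ± 0.0163 in those given HC3 and 0.735 ± 0.0719 in those given RSM, and 0.0793 ± 0.0271, 0.394 ± 0.0250 and 0.482 ± 0.0249 in M[IL-4] (SD, n = 3).

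The Slc38 carriers SNAT1 and SNAT2 take up glutamine and other small neutral amino acids with sodium, and their genes lie next to each other on chromosome 15 (*Slc38a1*, ENSMUSG00000023169, chr15:96571418-96642913, minus strand, and *Slc38a2*, ENSMUSG00000022462, chr15:96687392-96699730, minus strand). *Slc38a2* was at 244, 200.2 and 199 CPM in Veh-treated M[0], 448, 461 and 425 CPM in those given HC3 and 479.7, 504 and 456 CPM in those given RSM. In M[IL-4] it was at 176, 202 and 191 CPM with Veh, 348, 383 and 372 CPM with HC3 and 362, 354 and 358 CPM with RSM, again with no overlap of inhibitor and vehicle. It was called in M[0], at 1.05 ± 0.075 for HC3 and 1.16 ± 0.075 for RSM (FDR 1.52e-09 and 4.41e-10), and lay just under the fold threshold in M[IL-4], at 0.96 ± 0.075 and 0.92 ± 0.075 (FDR 8.33e-09 and 1.27e-08). The call was lost for HC3 in M[0] without replicate 2 (0.97) and gained for HC3 in M[IL-4] with library size scaling (1.01).

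*Slc38a1* stayed between 104 and 138 CPM in all 18 libraries. The 95% interval of its log2 fold change was -0.10 to 0.20 for HC3 and -0.079 to 0.22 for RSM in M[0], and -0.045 to 0.25 for HC3 in M[IL-4]. With RSM in M[IL-4] it rose by 0.21 ± 0.071 (FDR 0.0223), a change that did not pass without replicate 1 or replicate 3. The ratio of *Slc38a2* to *Slc38a1*, per kilobase, was 3.38 ± 0.326 in Veh-treated M[0], 6.80 ± 0.254 in those given HC3 and 7.21 ± 0.0905 in those given RSM.

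*Slc6a9* encodes GlyT1, the sodium- and chloride-dependent glycine carrier (ENSMUSG00000028542, chr4:117834506-117875198, plus strand). It held 19, 22 and 38 counts in Veh-treated M[0], 131, 151 and 149 counts in those given HC3 and 164, 191 and 213 counts in those given RSM. In M[IL-4] it held 50, 29 and 31 counts with Veh, 148, 83 and 195 counts with HC3 and 160, 70 and 138 counts with RSM. Inhibitor and vehicle libraries did not overlap in either polarization, and replicate 2 of each inhibitor group in M[IL-4] was below the other 2. The log2 fold changes were 2.35 ± 0.33 and 2.75 ± 0.33 in M[0] for HC3 and RSM (FDR 1.23e-05 and 1.75e-06), and after IL-4 1.94 ± 0.32 and 1.65 ± 0.32 (FDR 7.31e-05 and 0.000391). Of the 10 genes it alone overlaps genes of the opposite strand, over 30.25% of its exon length (*B4galt2*, *Ccdc24* and *Gm17114*), and reads of the 2 strands cannot be told apart without a strand setting. *Ccdc24* and *Gm17114*, which match 44.8% of its transcript, held at most 1 count per library. *B4galt2* held 22 to 141 counts per library and had an FDR over 0.05 in each of the 4 comparisons (0.182, 0.217, 0.307 and 0.104). Its log2 fold changes were 0.67, 0.63, 0.59 and 0.91, listed as HC3 then RSM, naïve cells first. All were positive, the direction of *Slc6a9*. The part of *B4galt2* reads in the *Slc6a9* counts was not tested.

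The second question was whether IL-4 itself changed these transcripts, with and without an inhibitor. In vehicle-treated cells 1 of the 10 was called, against 6.66% of all genes. This was *Slc1a5*, which rose 2.07-fold (log2 1.05 ± 0.13, FDR 5.25e-06), and it was under the fold threshold with library size scaling (0.996) and without replicate 1 (0.90, FDR 0.00111). *Slc7a5* also rose, by 0.72 ± 0.14 (FDR 0.000766). The remaining 8 did not pass the FDR, and their log2 fold changes ran from -0.84 for *Slc7a3* to 0.48 for *Slc6a9*. By FDR alone 2 of the 10 were higher and 0 lower, beside 2417 higher and 2232 lower of the 14979 genes tested.

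With HC3, 0 of the 10 were called between M[IL-4] and M[0] by edgeR or DESeq2, where edgeR called 3.97% of all genes. An unadjusted p under 0.05 was found in 4, with no count of all genes at that p. The FDR alone was passed by 1 higher and 1 lower gene, beside 1081 and 1120 of the 14979 tested. By FDR alone *Slc1a5* rose by 0.49 ± 0.13 (FDR 0.0146, 0.130 without replicate 1) and *Slc38a2* fell by 0.27 ± 0.074 (FDR 0.0166, 0.0510 without replicate 1 and 0.134 without replicate 3). With RSM, again 0 were called by either tool, against 4.26%, and 5 had an unadjusted p under 0.05, again with no count of all genes. The FDR alone was passed by 0 higher and 2 lower genes, beside 1317 and 1009 of the 14979. By FDR alone *Slc7a5* fell by 0.49 ± 0.12 (FDR 0.00834, 0.104 without replicate 3) and *Slc38a2* by 0.42 ± 0.074 (FDR 0.000390). *Slc1a5* under RSM changed by 0.20 ± 0.13 (FDR 0.365).

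**Figure D4:**
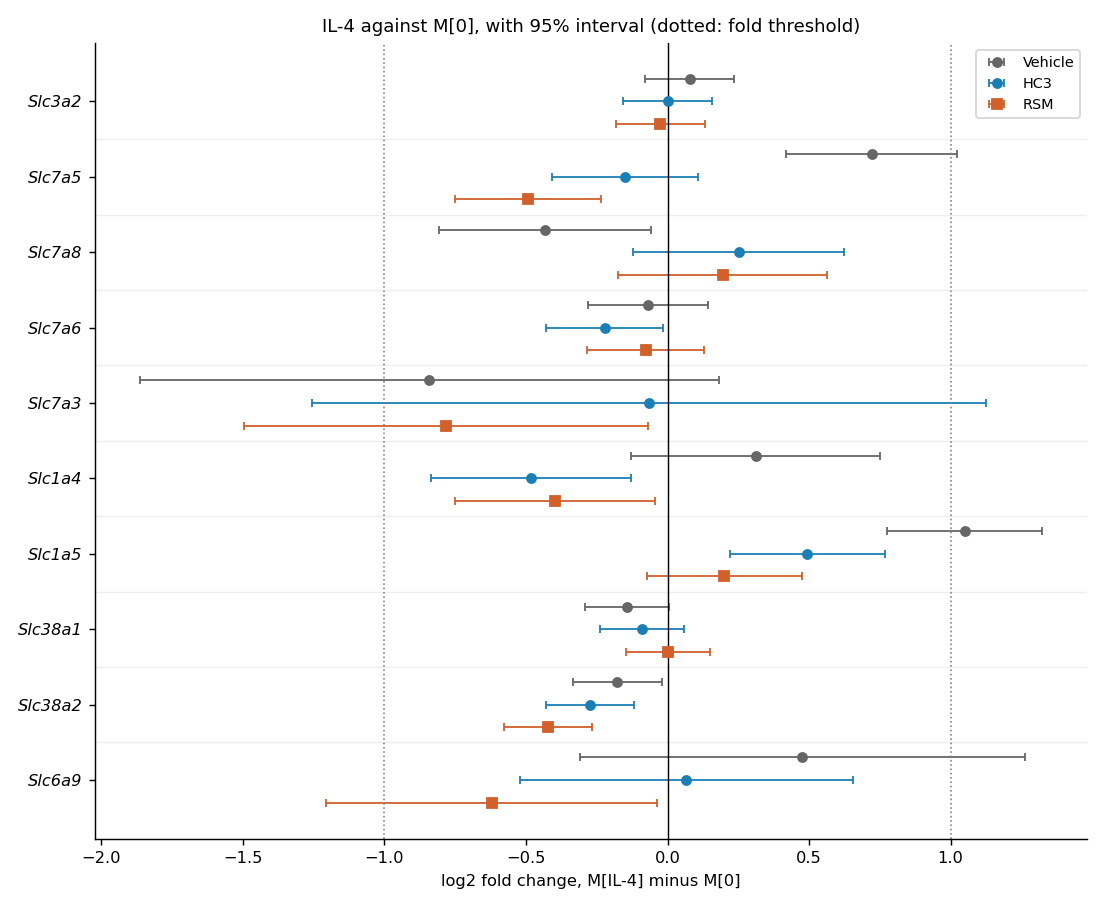
Log2 fold change of each gene between M[IL-4] and M[0] in cells given vehicle (grey), HC3 (blue) or RSM (orange), with 95% intervals from the fit across all genes and dotted lines at -1 and 1. For *Slc7a5* the vehicle value is right of 0 and the RSM value left of it, and for *Slc1a5* the values run from vehicle at the right to RSM nearest 0.

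The difference of the IL-4 response between inhibitor and vehicle was tested as an interaction, which equals the difference of the inhibitor response between the polarizations. For HC3, 0 of the 10 genes were called by edgeR or DESeq2, against 1.24% of all genes by edgeR. An unadjusted p under 0.05 was found in 4, with no count of all genes at that p. *Slc7a5* passed the FDR at -0.87 ± 0.19 (FDR 0.00836), but not without replicate 1 (0.0987) or replicate 3 (0.128). For RSM, 1 was called, against 2.14%, which was *Slc7a5* at -1.21 ± 0.19 (FDR 0.000319). *Slc1a5* passed the FDR for RSM at -0.85 ± 0.18 (FDR 0.00581, 0.0555 without replicate 3) and gave -0.56 ± 0.18 for HC3 (FDR 0.0821). By FDR alone 1 of the 10 interactions was negative for HC3 and 2 for RSM, with 0 positive. Of the 14979 genes, 461 were positive and 509 negative for HC3, and 757 and 620 for RSM. Both interactions use the same vehicle libraries.

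Same-numbered libraries of a polarization deviated together, and with the replicate number as a block within each polarization 2 genes were called for RSM, *Slc7a5* at -1.22 (FDR 2.44e-08) and *Slc6a9* at -1.12 (FDR 0.00797, and 0.172 without the block). The block also brought under the FDR threshold, without reaching the fold threshold, the HC3 interactions of *Slc1a5* (-0.56, FDR 4.28e-05), *Slc1a4* (-0.78, FDR 0.00489) and *Slc7a8* (0.73, FDR 0.00392), and the RSM interactions of *Slc1a4* (-0.70, FDR 0.00953), *Slc7a8* (0.67, FDR 0.00685) and *Slc38a2* (-0.25, FDR 0.0258). *Slc7a8* was the only one of these with a positive sign, and without replicate 1, which holds the high vehicle library of M[IL-4], its HC3 interaction was called at 1.11 (FDR 0.00719).

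The third question was where the 2 inhibitors differed. Between HC3 and RSM in M[0], 1 of the 10 genes was called, against 3.04% of all genes, and in M[IL-4] 1, against 2.80%. In both it was *Slc7a3*, lower with HC3 by 2.85 ± 0.42 on the log2 scale in M[0] (FDR 0.000108) and by 2.13 ± 0.45 in M[IL-4] (FDR 0.00331), the latter lost without replicate 3 (-1.87, FDR 0.118). This gene passed the count filter through its RSM libraries alone. By FDR alone, beside the higher *Slc3a2* and lower *Slc7a8* with HC3 given above, *Slc7a5* was lower with HC3 in M[0] by 0.38 ± 0.12 (FDR 0.0430), which did not hold without replicate 1 (0.277), without replicate 3 (0.228) or with library size scaling (0.0595). In M[IL-4] the interval for *Slc7a5* was -0.30 to 0.22. *Slc1a5* was higher with HC3 in M[IL-4] by 0.30 with the replicate block (FDR 0.000536 against 0.160 without it).

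Genes whose levels moved most like 3 of the transporters over the 18 libraries were named by the smallest root mean square difference of log2 CPM, each gene centred on its own mean. For *Slc3a2* they were *Lonp1* (0.094), *Ghitm* (0.11), *Gpr157* (0.13), *Lmo4* (0.14) and *Krtcap2* (0.14), where *Slc3a2* itself varied by 0.62 about its mean. For *Slc7a5*, which varied by 1.13, the nearest 2 of all tested genes were the fellow transporters *Slc1a4* (0.26) and *Slc6a9* (0.29), followed by *Nupr1* (0.30), *Atf5* (0.32) and *Sesn2* (0.33). For *Slc7a3*, varying by 0.92, they were *As3mt* (0.32), *Emb* (0.40), *Alox5* (0.45), *Mansc1* (0.48) and *Acpp* (0.50). The libraries share groups and treatments, so these values are descriptions without a test.

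The 10 transporters were set beside 4 lists of related genes, all chosen with earlier results of these data known. Of 37 other plasma membrane amino acid carriers 17 were tested, and 4 were called higher and 1 lower with HC3 in M[0], 3 and 0 with RSM in M[0], 3 and 1 with HC3 in M[IL-4], and 1 and 0 with RSM in M[IL-4]. Their median log2 fold changes were 0.12, 0.21, -0.11 and 0.20. *Slc7a1*, the widely expressed arginine and lysine carrier, rose by 2.27 ± 0.085 (FDR 2.08e-13) and 1.99 ± 0.084 (FDR 2.03e-12) in M[0]. *Slc7a11* rose by 3.95 ± 0.27 with HC3 and 5.22 ± 0.27 with RSM in M[0] (FDR 8.07e-10 and 2.31e-11), from 4.78 ± 0.970 CPM to 73.8 ± 24.6 and 177 ± 20.3 CPM. *Slc16a10*, a facilitative carrier of aromatic amino acids, fell by 0.92 and 0.75 (FDR 8.00e-10 and 1.40e-08), short of the fold threshold. After IL-4 the genes of this list with the lowest FDR were *Slc7a1* (1.44 with HC3 and 0.96 with RSM), the glutamine carrier *Slc38a7* (0.91 and 0.80), the taurine carrier *Slc6a6* (-0.52 with HC3, FDR 4.33e-07) and *Slc7a11* (2.10 with RSM, FDR 7.82e-07). The list was set by gene name, and its title may not hold for every member, such as *Slc38a7*. Where each protein lies in the cell was not measured.

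Of the 40 genes of lysosomal amino acid carriers and amino acid sensing by mTORC1, all tested, 2, 2, 1 and 3 were called higher and 2, 2, 2 and 1 lower in the same order of comparisons. These counts were near the shares of all tested genes given above, and give no result about the list as a whole. Sestrins act upstream of mTORC1, and *Sesn1* and *Sesn2* are leucine sensors. *Sesn2* rose by 2.13 ± 0.11 and 2.22 ± 0.11 in M[0] (FDR 2.00e-11 and 1.50e-11), and *Sesn1* fell by 2.58 ± 0.12 and 2.24 ± 0.12 (FDR 3.65e-12 and 2.14e-11), and after IL-4 the values were 2.18 and 2.21 for *Sesn2* and -1.75 and -1.70 for *Sesn1*. *Sesn3*, named after its values were seen, had -0.68, -0.70, -0.55 and -0.34 in the order of comparisons above (FDR 0.000730, 0.000564, 0.00593 and 0.0760). After *Sesn1* and *Sesn2*, the lowest FDR belonged to *Castor2*, an arginine sensor, with HC3 (-0.98 in M[0] and -0.69 after IL-4), and with RSM to the lysosomal histidine and peptide carrier *Slc15a4* in M[0] (-0.54) and to *Flcn*, folliculin, after IL-4 (0.45). The list medians lay between 0.018 and 0.086.

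Of 30 genes for synthesis and breakdown of neutral amino acids 25 were tested, and 7, 8, 4 and 4 were called higher and 1, 0, 0 and 0 lower. *Asns* rose by 2.37 ± 0.10 with HC3 and 2.46 ± 0.10 with RSM in M[0] (FDR 1.51e-12 and 1.42e-12). *Aldh18a1*, the first enzyme of proline synthesis from glutamate, rose by 1.79 ± 0.11 and 1.86 ± 0.11 (FDR 2.80e-10 and 1.94e-10). *Glul*, glutamine synthetase, fell with HC3 by 1.47 ± 0.064 in M[0] and 0.92 ± 0.064 after IL-4 (FDR 1.85e-12 and 1.72e-09). *Phgdh*, the first enzyme of serine synthesis, rose by 2.58 ± 0.17 with RSM in M[0] (FDR 6.22e-10), with 84.3% of its transcript nearly identical to the gene *Gm7901*. *Bcat1*, the cytosolic branched-chain aminotransferase, rose by 1.97 ± 0.24 with RSM after IL-4 (FDR 2.06e-06). The medians of this list were 0.31, 0.17, 0.13 and 0.088. Of the 16 integrated stress response regulators, all tested, 7, 8, 7 and 7 were called higher and 0 lower in each comparison, with *Atf4* at 1.77, 1.74, 1.21 and 1.12 (FDR 4.04e-14, 5.05e-14, 4.62e-12 and 1.54e-11). Their medians were 0.81, 0.86, 0.66 and 0.70. *Trib3*, a pseudokinase and target of ATF4, rose by 6.57, 6.49, 5.50 and 5.56, and *Ddit3* (CHOP) by 3.33, 2.99, 2.88 and 2.47, all with FDR of 4.14e-13 or lower. *Atf5* rose with RSM by 3.27 and 2.36, and *Ppp1r15a*, a phosphatase subunit that reverses eIF2α phosphorylation, with HC3 after IL-4 by 2.73.

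**Figure D5:**
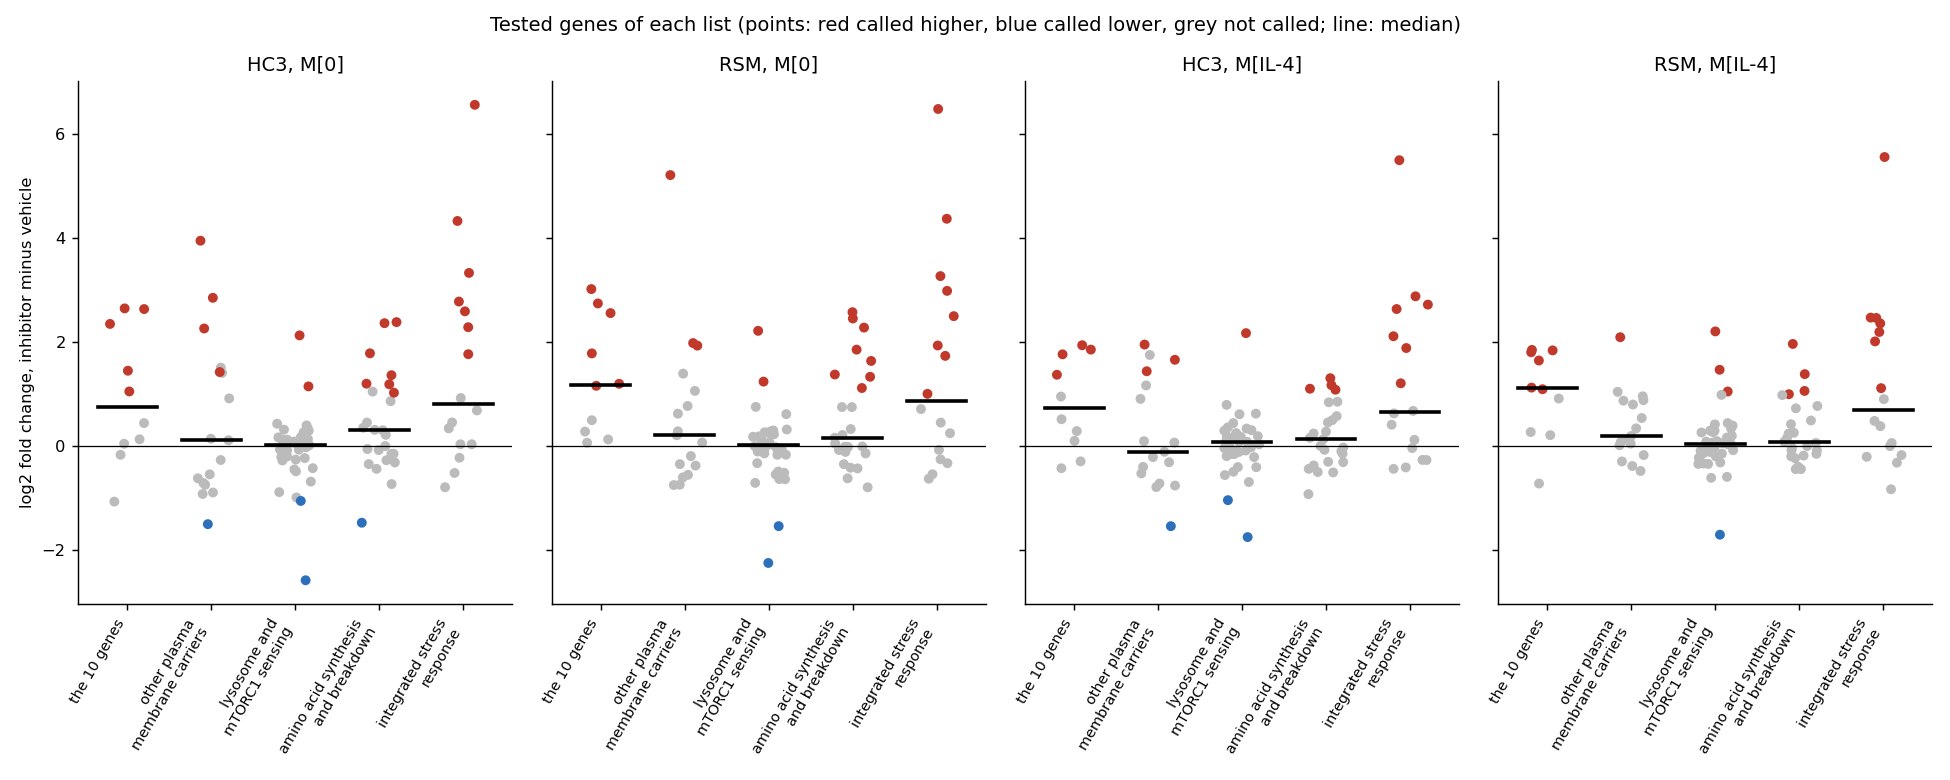
Log2 fold change against vehicle of each tested gene of the 10 transporters and of 4 lists of related genes, in 4 comparisons, with red points called higher, blue points called lower, grey points not called and a black line at the median. The median of the 10 transporters lies above that of the other plasma membrane carriers in each comparison. Transporters and lists were chosen with earlier results of these data known, so this difference is a description only.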

How the data were processed

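Per the study's methods, the authors ran fastp for trimming and STAR for alignment to GRCm38, kept pairs with mapping quality 40, marked but kept duplicates with Picard, and counted exon reads per gene with Subread featureCounts. The deposited values are raw counts per Ensembl gene in 18 libraries, not normalized, and no other per-sample column was left out (0 unused). The annotation release and strand setting are not given in the sources used here.

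Symbols, positions and exon lengths came from GENCODE vM21 (GRCm38), which matched 55144 of 55385 genes, and the 10 genes were taken by name. Libraries were scaled with TMM factors, genes with 10 or more counts in 2 or more libraries were kept (14979), and all 18 libraries were fitted in a single model with a term per group by edgeR 4.0.16 quasi-likelihood tests (R 4.3.3, limma 3.58.1) with Benjamini-Hochberg adjustment. Log2 CPM used a prior count of 2. Calls needed an FDR under 0.05 and a difference of 1 or more, in size, on the log2 scale. Intervals are 95% intervals of the fit. The 17457796 to 19522255 counts per library set the precision for low genes: 3 counts are taken as the floor, which covers counting error only, since duplicates were kept. Libraries are separate samples, but the labels do not tie numbers to mice, and the p-values measure the spread between these libraries. Replicates of a group differed by 6.30 to 20.3 in chi-square per gene, so none was a copy.

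The genes named were the 10 transporters, up to 3 genes with the lowest FDR from each related list in each comparison of an inhibitor with vehicle, the light chains *Slc7a7*, *Slc7a10* and *Slc7a11* with *Atf4*, *Ddit3* and *Trib3*, and the 5 nearest genes for each of *Slc3a2*, *Slc7a5* and *Slc7a3*. The transporters and lists were chosen with earlier results of these data known. Same-numbered libraries of a polarization correlated in their deviations from group means at r of 0.110 to 0.372 in 18 of 18 pairs. Across polarizations 12 of 27 pairs exceeded 0.1, and the replicate 2 pairs among them ran from 0.239 to 0.300. M[0] replicate 3 and M[IL-4] replicate 1 libraries, with unlike numbers, correlated at 0.0861 to 0.198. The number was taken as a pair within a polarization only, and any pairing across polarizations is not known. The main fit holds no term for pairs. Alternatives were a replicate block (over all libraries, or within each polarization), fits of the compared groups alone, DESeq2 1.42.0, library size scaling, no count filter, edgeR's own count filter, and each replicate left out. Near-identical stretches (98% identity over 100 bases or more) were searched with blastn 2.17.0. The procedure was tested on simulated data. Figures were drawn with matplotlib 3.10.9 (Python 3.11.15, pandas 2.3.3).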

Additional observations from a re-analysis of the deposited data

Results flagged for a closer look

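The response to an inhibitor differed between the polarizations by an interaction test in 3 cases among the 10 transporters. *Slc7a5* rose less in M[IL-4] than in M[0] under HC3, with an interaction of -0.871 on the log2 scale (SE 0.19, edgeR FDR 0.00836), which did not pass without replicate 1 (FDR 0.0987) or replicate 3 (0.128). Under RSM the same gene gave -1.21 (SE 0.19, edgeR FDR 0.000319). *Slc1a5* gave -0.848 under RSM (SE 0.18, edgeR FDR 0.00581, 0.0555 without replicate 3), with its level lower after IL-4 and RSM than after IL-4 alone and no change detected in M[0]. Both *Slc7a5* interactions involve the same 6 vehicle libraries. With the replicate block within each polarization, *Slc6a9* was also called under RSM (-1.12, FDR 0.00797), and 6 further interactions of *Slc1a4*, *Slc1a5*, *Slc7a8* and *Slc38a2* passed the FDR without reaching the fold threshold. The part of the lower macrophage marker levels in these differences was not tested.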

How the results depend on the processing

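Of 626 alternative values of the transporters' fold changes, 617 kept their direction and stayed called or not called by FDR and fold together. Of the rest, 6 were no longer called, 1 became called and 2 reversed. These values cover 64 pairs of gene and comparison. They are all pairs of inhibitor with vehicle and of IL-4 with vehicle, and in the other comparisons only those past the FDR. Calls gained by other pairs are not counted among them, such as the interactions of *Slc6a9* with RSM and *Slc7a8* with HC3 given above. All 240 values of levels and 90 of light chain shares moved by less than the spread between replicates. With a replicate left out of so small a group, a mean cannot move by as much as that spread. Such values therefore do not test the levels or shares. By FDR alone, over all 11 comparisons, 38 of 1070 values no longer passed, 30 of them with a replicate left out, and 48 passed that had not, 18 of them with a replicate block. Both reversals concern changes near 0. *Slc38a1* with HC3 in M[0] ranged from -0.0045 to 0.061 with a replicate left out (lowest without replicate 2), and *Slc3a2* between Veh M[IL-4] and Veh M[0] from -0.070 (without replicate 1) to 0.17. The cause was not tested.

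The number of transporters called for IL-4 with vehicle, 1, was 0 with library size scaling and 0 to 1 with a replicate left out, 0 without replicate 1. For HC3 against RSM in M[IL-4] it was 0 to 1, 0 without replicate 3, and for the HC3 interaction 0 to 1, 1 without replicate 1. With the replicate block within each polarization, the number called for the RSM interaction was 2 in place of 1, and it was 2 without a count filter, *Slc6a9* joining *Slc7a5* each time. The block changed no other call, could not be fitted within polarizations for IL-4 comparisons, and as a block over all libraries it changed no call. Low counts limit *Slc7a3* (at most 35 counts per library) and *Slc6a9* (19 to 213). In the list of other carriers, the count called for RSM in M[IL-4] was 1, and 2 with library size scaling or without replicate 1 or 2, and for HC3 in M[IL-4] it was 4, and 2 without replicate 3 or with the compared groups alone. No scaling moved the median of all genes by 0.1 or more on the log2 scale.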

Other observations

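Beyond the neutral carriers, the arginine and lysine carriers of the same family showed a contrast in the same libraries, named here after their values were seen. *Slc7a2* (CAT2), which supplies arginine to macrophages, was at 15.8 ± 4.20 CPM (SD, n = 3) in Veh M[0] and 330.0 ± 24.7 in Veh M[IL-4], a rise of 4.38 ± 0.16 on the log2 scale (edgeR FDR 3.97e-13). *Slc7a1* (CAT1) rose with IL-4 by 1.11 ± 0.084 (edgeR FDR 8.46e-09), from 37.7 ± 3.15 to 81.4 ± 7.27 CPM. With HC3 in M[IL-4], *Slc7a2* was lower by 0.72 ± 0.13 (edgeR FDR 0.000291) while *Slc7a1* was higher by 1.44 ± 0.081 (edgeR FDR 9.46e-11). With RSM in M[IL-4] the changes were -0.17 ± 0.13 for *Slc7a2* (edgeR FDR 0.344) and 0.96 ± 0.081 for *Slc7a1* (edgeR FDR 1.77e-08). Among the neutral carriers IL-4 gave no rise of the size of *Slc7a2*, the largest being *Slc1a5* at 1.05.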
